A study of Mus musculus with 2 samples.

Results

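Haemoglobin-dominated barcodes were the droplets of a submandibular gland preparation in which the 4 adult globin genes Hba-a1, Hba-a2, Hbb-bs and Hbb-bt together gave at least 50% of the unique molecular identifiers (UMIs, tags that each mark 1 captured RNA molecule). They were chosen by this measured globin share alone, with no filter on genes or mitochondrial RNA. The rule took 516 of 6696 barcodes, of which 410 came from 4726 in the p63 KO library and 106 from 1970 in the wild-type library. The tissue was the salivary gland of adult mice at 12 weeks, dissociated whole and run through 10x Genomics 3' v2 chemistry, with 1 library from a p63 KO mouse and 1 from a p63 wild-type mouse. The labels name the source as primary epithelial progenitor cells; how, where and when p63 was removed, the strain, the sex and any pooling of glands are not stated in the labels. With 1 library per genotype there was no replicate, so no test was made, genotype and library cannot be told apart, and every interval covers counting error alone.

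The label held against the fifth marker, which the rule did not use. Alas2, which encodes the erythroid enzyme for the first step of heme synthesis, had at least 1 UMI in 382 of 410 p63 KO members (93.2%, exact 95% interval 90.3 to 95.4%) and in 103 of 106 wild-type members (97.2%, 92.0 to 99.4%). Of barcodes with a globin share under 1%, 0.658% in p63 KO and 1.66% in wild type had an Alas2 UMI. These barcodes were picked by the same globin share, and whether their Alas2 was free RNA was not tested. At globin shares of 1 to 50%, Alas2 was found in 55.9% of p63 KO and 72.6% of wild-type barcodes. Median depth in p63 KO was 2134.5 UMIs in members and 2030 in barcodes under 1% globin. In wild type it was 2556.5 in members and 3278 in barcodes under 1% globin. After thinning every barcode to 1000 UMIs, Alas2 was found in 78.3% of p63 KO and 77.4% of wild-type members. In barcodes under 1% globin of the same libraries it was then found in 0.235% and 0.388%. The members are called red cell barcodes from here on. Trp63, the gene of p63, had 20 UMIs in all p63 KO barcodes, 153 in all wild-type barcodes and none in the red cell barcodes of either library. The libraries shared 11 barcode sequences, of which 0 were red cell barcodes in both.

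Mature mammalian red cells carry no nucleus and make no new RNA; young ones, the reticulocytes, enter the blood with leftover mRNA, chiefly for globin, and lose it along with mitochondria and ribosomes within days. Adult haemoglobin is a tetramer of alpha and beta chains, and the chains need heme, whose synthesis begins and ends in mitochondria and depends on imported iron. Red cells reach a dissociated gland with the blood in its vessels.

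The 4 globin genes of the rule lie in 2 clusters. On GRCm38, Hba-a1 is at chr11:32283511-32284465 and Hba-a2 at chr11:32296489-32297298, both on the forward strand, and Hbb-bs is at chr7:103826534-103828096 and Hbb-bt at chr7:103812524-103813996, both on the reverse strand. Alas2 is at chrX:150547375-150570638 on the forward strand. All 5 are protein-coding. The RefSeq windows of 250 bases just before their transcription starts (GRCm38.p6, given 5′ to 3′ on the gene's strand) are printed because these genes were high together in the same barcodes; GENCODE M21 puts the gene starts 3 to 168 bases further upstream. Capitals mark every match on either strand to GATAA, a core motif of GATA factors, to CACCC, a motif of Krüppel-like factors, and to CCAAT, a general promoter motif; overlapping matches were counted apart.
Hba-a2: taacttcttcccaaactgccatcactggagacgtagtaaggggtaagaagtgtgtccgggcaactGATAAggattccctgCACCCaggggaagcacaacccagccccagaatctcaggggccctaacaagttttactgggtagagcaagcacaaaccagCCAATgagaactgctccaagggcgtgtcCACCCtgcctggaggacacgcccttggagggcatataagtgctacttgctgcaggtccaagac
Hbb-bs: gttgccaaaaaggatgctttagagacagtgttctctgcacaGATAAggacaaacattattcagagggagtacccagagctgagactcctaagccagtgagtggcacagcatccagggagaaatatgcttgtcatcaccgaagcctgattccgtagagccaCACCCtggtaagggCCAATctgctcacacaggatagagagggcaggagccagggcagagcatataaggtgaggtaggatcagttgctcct
Hbb-bt: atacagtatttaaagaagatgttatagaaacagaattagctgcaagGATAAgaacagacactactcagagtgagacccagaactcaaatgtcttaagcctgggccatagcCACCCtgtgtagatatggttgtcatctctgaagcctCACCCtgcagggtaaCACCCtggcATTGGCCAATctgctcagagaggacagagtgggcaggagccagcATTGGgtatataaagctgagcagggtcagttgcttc
Alas2: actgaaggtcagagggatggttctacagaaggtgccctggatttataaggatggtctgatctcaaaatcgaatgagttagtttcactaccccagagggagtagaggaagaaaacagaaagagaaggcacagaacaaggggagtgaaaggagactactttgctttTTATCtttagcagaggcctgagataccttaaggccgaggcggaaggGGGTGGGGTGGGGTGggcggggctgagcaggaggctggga
The Hba-a1 window (chr11:32283422-32283671) held the same sequence as that of Hba-a2 (chr11:32296242-32296491) but for an offset of 3 bases, with 247 bases in common. The windows of Hbb-bs, Hbb-bt and Alas2 were at chr7:103827929-103828178, chr7:103813924-103814173 and chrX:150547167-150547416. Each of the 5 windows held 1 GATAA match, and each held between 1 and 3 CACCC matches. CCAAT matched once in the Hba and Hbb-bs windows, 3 times in the Hbb-bt window and nowhere in that of Alas2. Among 32817 RefSeq windows of the same length, 22.6% held GATAA, 52.0% CACCC, 33.8% CCAAT and 3.45% all of them. A match is a string of letters and shows no binding.

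Red cell barcodes made up 8.68% of the p63 KO library (exact 95% interval 7.89 to 9.51%) and 5.38% of the wild-type library (4.43 to 6.47%). They held 7.98% of the library's UMIs in p63 KO and 3.21% in wild type. Of all UMIs of the 4 globin genes, the red cell barcodes held 96.0% in p63 KO and 75.2% in wild type, so a larger part of the globin RNA lay outside them in the wild-type library. The shallowest deposited barcode had 1076 UMIs in p63 KO and 2175 in wild type. With p63 KO barcodes under 2175 UMIs left out, 198 of 2110 were red cell barcodes (9.38%, 8.17 to 10.7%), against 5.38% in wild type. The share of blood cells in a gland suspension, the deposit's own choice of barcodes and genotype cannot be told apart here.

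The globin share itself chose the barcodes and is given as a description. Its median was 94.4% in p63 KO red cell barcodes (51.6 to 98.4%) and 87.7% in wild type (50.5 to 95.6%). At a share of 90% or more, 353 barcodes remained in p63 KO (7.47% of the library) and 38 in wild type (1.93%). Shares of 1 to 50% were held by 59 of 4726 p63 KO barcodes and by 62 of 1970 wild-type barcodes. The 3 p63 KO barcodes just inside the threshold had 51.6, 52.2 and 52.3% globin with 1, 3 and 6 Alas2 UMIs, and the 3 just outside had 46.6, 46.4 and 45.1% with 0, 1 and 4. The 3 wild-type barcodes just inside had 50.5, 51.1 and 51.2% with 1, 6 and 1 Alas2 UMIs, and the 3 just outside had 48.4, 48.0 and 45.8% with 4, 0 and 1. Barcodes on either side of the threshold thus held Alas2.

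**Figure D1:**
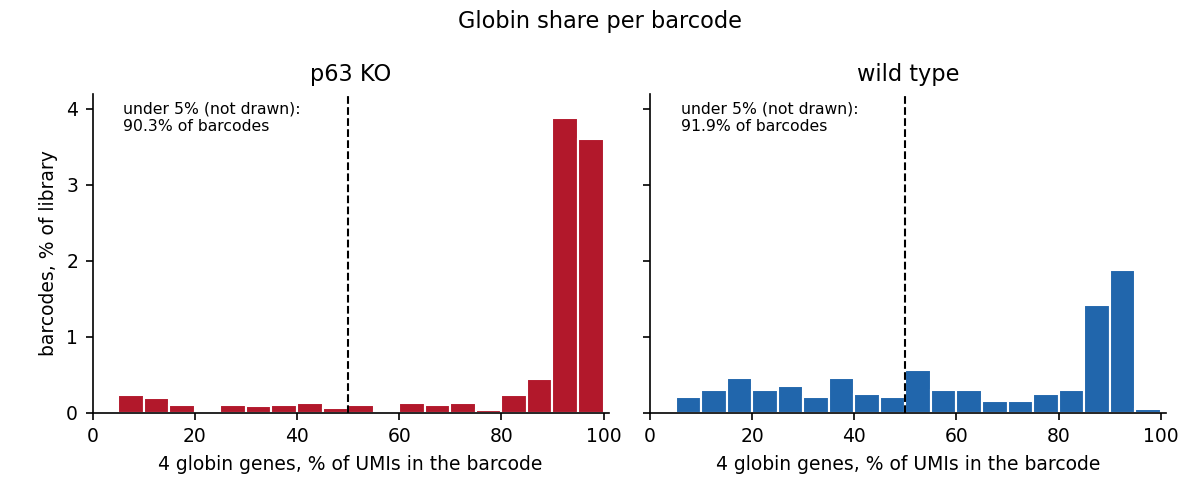
Percent of barcodes in each library (y axis) by the share of their UMIs that came from the 4 globin genes (x axis, bins of 5 percentage points), for p63 KO on the left and wild type on the right. The dashed line is the 50% threshold. Barcodes under 5%, 90.3% of p63 KO and 91.9% of wild type, are not drawn; p63 KO red cell barcodes pile up above 90%, while the wild-type ones reach lower shares.

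The balance of globin chains differed between the libraries. Alpha globin UMIs (Hba-a1 and Hba-a2) numbered 431773 in p63 KO red cell barcodes against 433878 beta globin UMIs (Hbb-bs and Hbb-bt), a ratio of 0.995, while wild-type red cell barcodes had 85190 and 140111, a ratio of 0.608. Per barcode the median ratio was 0.994 in p63 KO (0.115 to 9.56) and 0.590 in wild type (0.425 to 1.53). Alpha equalled or exceeded beta in 200 of 410 p63 KO and 4 of 106 wild-type red cell barcodes. The 2 sets overlapped, with the p63 KO ratios reaching past the wild-type range at both ends; 63 of 410 p63 KO barcodes exceeded the highest wild-type one. The difference in ratio was also present at a globin share of 90 to 95%, with 0.980 in 183 p63 KO barcodes and 0.582 in 37 wild-type barcodes.

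Within each library the alpha share varied more from barcode to barcode than counting allows. The standard deviation of alpha as a percent of globin UMIs was 10.9 points in p63 KO and 5.90 points in wild type, which was 9.22 and 5.47 times the value that counting error alone would give. Single p63 KO barcodes ran from 10.3% to 90.5% alpha, and wild-type barcodes from 29.8% to 60.5%.

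The minor beta gene also varied beyond counting error, with a spread of Hbb-bt as a share of beta that was 5.10 times counting error in p63 KO and 4.13 times in wild type. Hbb-bt UMIs relative to Hbb-bs UMIs summed to 0.124 in p63 KO and 0.156 in wild-type red cell barcodes, with barcode medians of 0.109 and 0.150. Single barcodes ran from 0.00139 to 0.398 in p63 KO and from 0.0341 to 0.318 in wild type, and 286 of 410 p63 KO barcodes lay below the wild-type median. The 2 alpha genes kept closer step: Hba-a1 relative to Hba-a2 summed to 1.43 in p63 KO and 1.19 in wild type, with a spread of Hba-a1 as a share of alpha that was 1.88 and 1.25 times counting error. The copies in each pair are alike, so the split of reads between copies is uncertain. Of all 50-base windows, 86.9% of those of the Hba-a2 transcript were found letter for letter in the partner transcript, and 67.5% of those of Hba-a1. In the beta pair it was 58.3% for Hbb-bt and 65.8% for Hbb-bs. The alpha to beta ratio does not depend on how reads are split between copies, but it would on any loss of reads that match both; how such reads were counted is not stated.

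**Figure D2:**
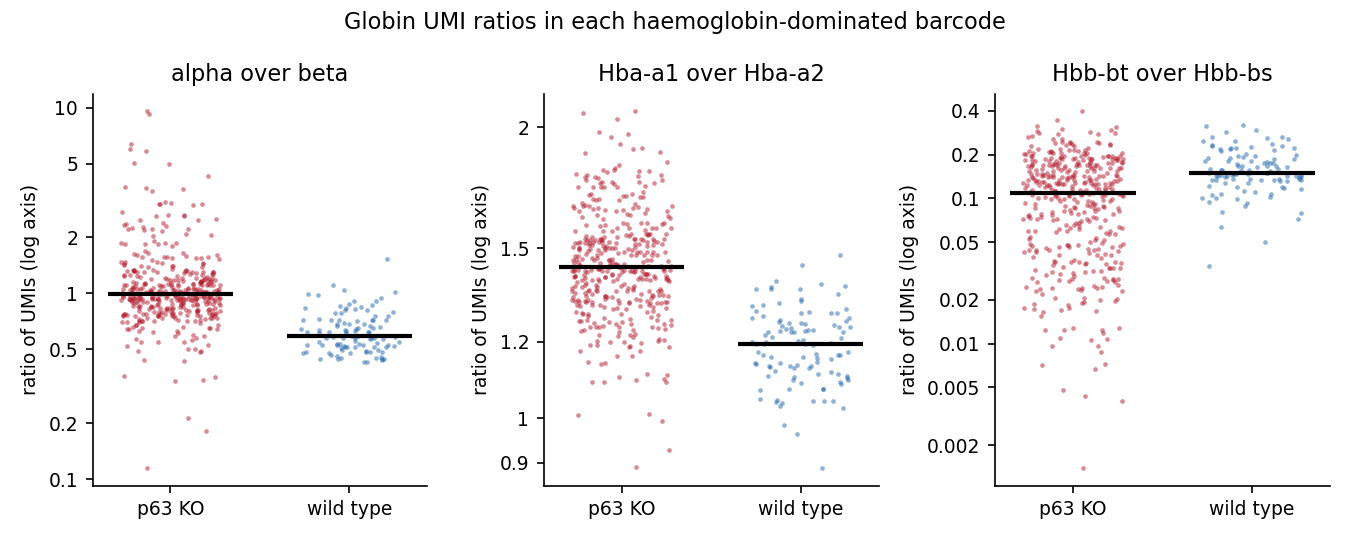
Ratios of globin UMIs (log axes) in each red cell barcode, 410 of p63 KO on the left of each panel and 106 of wild type on the right; 1 point is 1 barcode and the bar is the median. The p63 KO barcodes center on an alpha to beta ratio near 1 and spread wider in all 3 ratios than the wild-type barcodes.

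Alpha to beta ratios outside the red cell barcodes followed the library as well. Over all other barcodes the ratio was 1.17 in p63 KO and 0.693 in wild type, and in barcodes with a globin share under 0.1% it was 0.604 in p63 KO and 0.479 in wild type. In both libraries the traces of globin RNA in the lowest class were thus poorer in alpha than the red cell barcodes.

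Beyond globin, a red cell barcode held little RNA. The median was 112 non-globin UMIs in p63 KO and 322.5 in wild type, with 66 and 175.5 genes detected per barcode, globin genes included, against 2023 and 3246.5 non-globin UMIs in the other barcodes of the same libraries. In p63 KO barcodes at or above 2175 UMIs the median was 172.5. At a globin share of 90 to 95%, the medians were 136 in p63 KO and 218 in wild type. All red cell barcodes together held 78787 non-globin UMIs in p63 KO and 57099 in wild type, which set the precision of all that follows.

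Mitochondrial transcripts were the largest of the gene classes summed. They gave 25.4% of non-globin UMIs in p63 KO red cell barcodes (Poisson 95% interval 25.02 to 25.73%), against 21.4% in other p63 KO barcodes, and 17.1% in wild-type red cell barcodes (16.7 to 17.4%), against 8.07% in other wild-type barcodes. The share in single red cell barcodes ran from 0 to 87.2% in p63 KO, with a median of 22.1%, and from 1.82 to 81.8% in wild type, with a median of 13.3%. The transcripts with the most UMIs were mt-Atp6, a subunit of ATP synthase, with 5100 UMIs in p63 KO and 2198 in wild type, mt-Co3, a subunit of cytochrome c oxidase, with 3942 and 2571, and mt-Cytb, the cytochrome of complex III, with 3001 and 1325. Ribosomal protein mRNAs gave 11.7% in p63 KO red cell barcodes, against 12.3% in the others, and 13.9% in wild-type red cell barcodes, against 16.3%.

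A set of 7 red cell genes (Alas2, Ube2l6, Bpgm, Mkrn1, Fech, Bnip3l and Isg20) was taken from the erythroid lists. Those lists were chosen with earlier results of these data known, so the level of the set is a description. Mkrn1 also had a UMI in 19.6% of p63 KO and 24.0% of wild-type barcodes under 1% globin. The 7 genes gave 4.30% of non-globin UMIs in p63 KO red cell barcodes and 0.0295% in other p63 KO barcodes. In wild type they gave 2.24% in red cell barcodes and 0.0242% in the others. The order of the libraries turned with the scale: relative to globin, the 7 genes had 39.1 UMIs per 10000 globin UMIs in p63 KO and 56.9 in wild type. Their share of non-globin UMIs was greater at higher globin shares. From 50 to 75%, 75 to 90% and 90 to 95% globin they made up 1.08, 2.98 and 6.04% of non-globin UMIs in p63 KO, and 0.953, 3.499 and 5.38% in wild type. At matched share the libraries thus lay closer on this scale than in the sums. In p63 KO 170 barcodes reached 95% or more, where the value was 7.55%, against 1 wild-type barcode. Per 10000 globin UMIs the direction over the same 3 classes turned. The 7 genes there had 61.1, 50.2 and 43.9 UMIs in p63 KO and 67.3, 57.8 and 51.3 in wild type.

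Malat1, a noncoding RNA held in the nucleus, was lower above 75% globin than below it. It gave 4.62% of non-globin UMIs in p63 KO and 4.35% in wild type at a globin share of 50 to 75%, 1.11% and 0.777% at 75 to 90%, and 0.819% and 0.898% at 90 to 95%, against 5.81% in other p63 KO and 2.85% in other wild-type barcodes. At 95% or more it was 1.197% in 170 p63 KO barcodes. Barcodes of 50 to 75% globin numbered 23 in p63 KO and 29 in wild type, and held 26120 of the 78787 and 34198 of the 57099 non-globin UMIs, so the summed non-globin RNA of the wild-type library rested more on them.

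**Figure D3:**
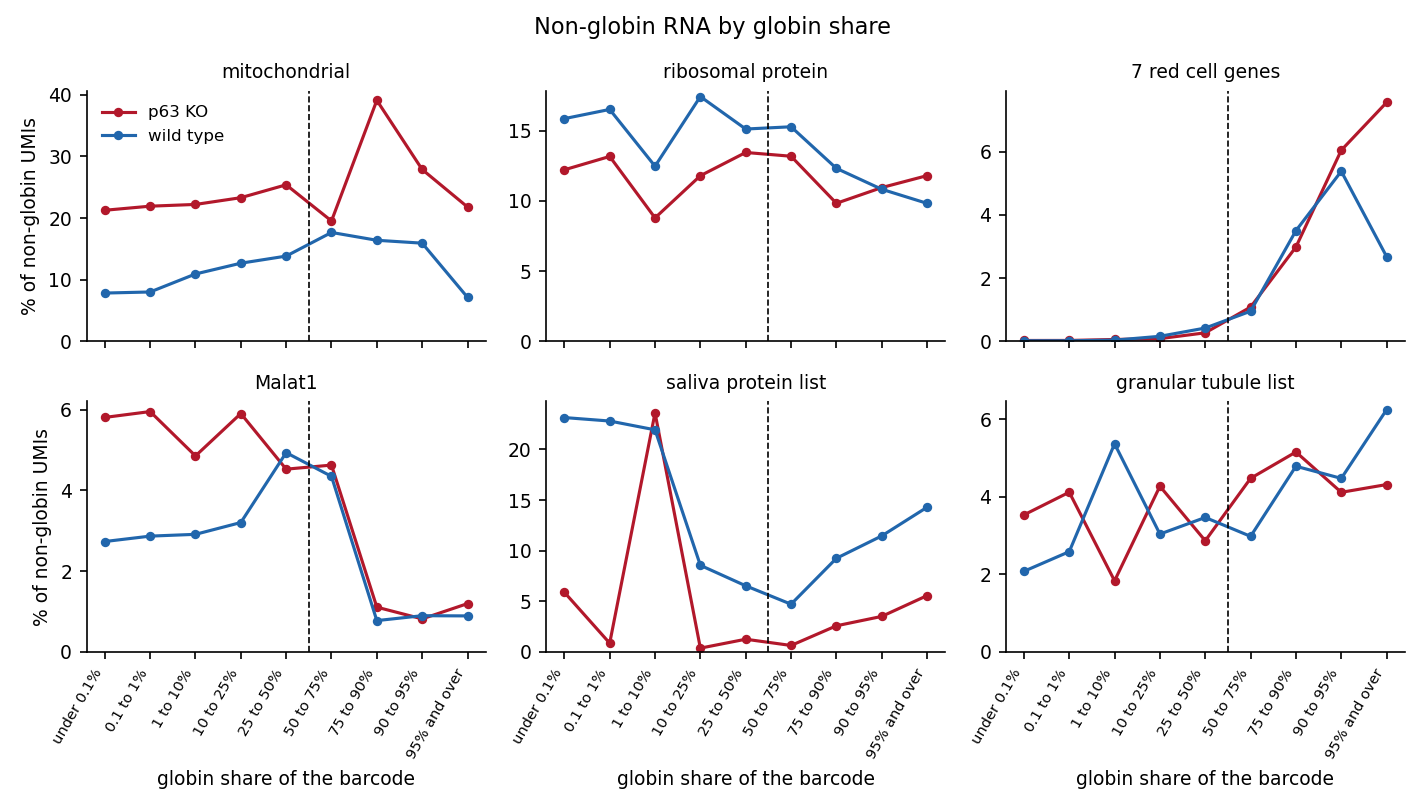
Percent of non-globin UMIs (y axis) given by each of 6 gene classes, by the globin share of the barcode (x axis), for p63 KO and wild type. The dashed line is the 50% threshold, and the wild-type point at 95% and over is 1 barcode. The 7 red cell genes climb past the threshold to 6.04% in p63 KO and 5.38% in wild type at 90 to 95% while Malat1 drops under 1%.

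To see which genes set the red cell barcodes apart, UMIs were summed over them and over all other barcodes of the same library and scaled to non-globin UMIs. A gene was compared where at least 5 UMIs were expected on both sides, and called where the 95% interval of the ratio lay wholly beyond 2-fold. In p63 KO, 39 of 1625 genes were called higher (2.4%) and 27 lower (1.66%). In wild type, 33 of 1055 were called higher (3.13%) and 20 lower (1.9%). Scaling by the median of ratios gave 46 higher and 7 lower in p63 KO, and scaling by all UMIs, which counts globin in the total, gave 14 and 6929 in p63 KO and 20 and 1700 in wild type. Of 1006 genes compared in both libraries, 19 were called higher in both, 5 lower in both and 0 in opposite directions. The mitochondrial transcripts mt-Atp6, mt-Co3 and mt-Cytb were called higher in wild type, at ratios of 2.22, 2.27 and 2.21, and not in p63 KO, at 1.29, 1.23 and 1.31; the difference between libraries was not tested. The minimum left out red cell genes that are scarce elsewhere; their ratios are given with their counts, and a minimum of 50 UMIs in both sets together, chosen after seeing the data, called 99 of 9203 genes higher in p63 KO (1.08%) and 158 of 8581 in wild type (1.84%), with 27 lower in p63 KO (0.293%) and 20 in wild type (0.233%).

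Heme synthesis was represented at its first and last steps. Alas2 had 1479 UMIs in p63 KO red cell barcodes and 112 in the 4316 others, a ratio of 1818 (95% interval 1500 to 2223), and 422 against 231 in wild type, a ratio of 270 (230 to 319). Fech, which inserts iron into the porphyrin, had 225 and 224 UMIs in p63 KO, a ratio of 138, and 72 and 132 in wild type, a ratio of 80.8. The other genes of the pathway were scarce: the most abundant of them had 7 UMIs in p63 KO (Urod) and 4 in wild type (Alas1), and Cpox was at 0 in both. Under the minimum of 50 UMIs, 2 of 8 heme genes were called higher in p63 KO (1.08% over all genes) and 2 of 9 in wild type (1.84% over all genes).

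Among genes of iron supply, Slc25a37 (mitoferrin, the mitochondrial iron importer) was 38.1 times as high in p63 KO red cell barcodes as in the others and 20.7 times in wild type, on 59 and 20 UMIs. Ftl1, the ferritin light chain, was 5.21 times as high in p63 KO and 2.77 times in wild type, and both were called; its processed copies can share reads with it. Fth1, the heavy chain, had ratios of 1.91 in p63 KO and 1.99 in wild type, which were not called. Slc25a39, a mitochondrial glutathione importer, was 12.0 times as high in p63 KO (9.01 to 15.6, on 59 UMIs) and was not called in wild type, on 4 UMIs against 536 (interval 0.300 to 2.85). Blvrb, a biliverdin reductase, had ratios of 12.6 in p63 KO and 10.9 in wild type.

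Genes of the red cell membrane were detected in part. Of 23 genes of the list, 15 had any UMI in p63 KO red cell barcodes and 14 in wild type; Ermap, Epb42, Dmtn and Icam4 were at 0 in both. Epb41, a protein of the membrane skeleton, had 55 UMIs in p63 KO and 26 in wild type, with ratios of 13.7 and 22.9 to the other barcodes. Slc4a1, the anion exchanger of the red cell membrane, had 6 UMIs in each library's red cell barcodes.

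Metabolic and antioxidant genes were led by Bpgm, the enzyme that makes the haemoglobin ligand 2,3-bisphosphoglycerate. It had 403 UMIs in p63 KO red cell barcodes and 117 in the others, a ratio of 474 (385 to 588), and 242 and 142 in wild type, a ratio of 252 (204 to 313). Prdx2 and Gpx1, which remove peroxides, were called in both libraries, with ratios of 11.8 and 10.8 in p63 KO and 5.75 and 8.58 in wild type. Car2, a carbonic anhydrase, was called in wild type at a ratio of 4.29 and not in p63 KO at 2.27. In this list 2 of 9 genes compared were called higher in p63 KO (2.4% over all genes) and 3 of 8 in wild type (3.13% over all genes), and none lower.

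The list of late maturation and organelle clearance held the most genes called higher of the erythroid lists, with 8 of 14 genes compared in p63 KO (2.4% over all genes) and 6 of 11 in wild type (3.13% over all genes), and none lower. Its median log2 ratio was 1.65 in p63 KO and 1.62 in wild type, beside -0.37 and -0.10 over all genes compared. Under the minimum of 50 UMIs the count was 14 of 24 in each library, beside 1.08% of all genes in p63 KO and 1.84% in wild type. Ube2l6, a conjugating enzyme for ubiquitin-like ISG15, had 516 and 52 UMIs in p63 KO, a ratio of 1366 (1026 to 1854), and 171 and 103 in wild type, a ratio of 246 (191 to 317). Bnip3l, the receptor that marks reticulocyte mitochondria for removal, was 17.6 times as high in p63 KO and 24.6 times in wild type. Mkrn1, a ubiquitin ligase, had ratios of 63.8 in p63 KO and 45.4 in wild type. Ubb, a polyubiquitin gene, was 3.40 times as high in p63 KO and 3.08 times in wild type. Isg20, an exonuclease, had ratios of 114 in p63 KO and 98.7 in wild type.

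Regulators were scarce, with 34 UMIs of the erythroid transcription factor list in p63 KO red cell barcodes and 25 in wild type. Of its 14 genes, 8 had a UMI in p63 KO and 7 in wild type. Lmo2 had 8 and 9 UMIs, with ratios of 6.52 in p63 KO (2.77 to 13.1) and 14.8 in wild type (6.56 to 29.4). Under the minimum of 50 UMIs it was the 1 gene called higher, of 8 compared in p63 KO (1.08% over all genes) and 7 in wild type (1.84% over all genes). Gata1, Klf1, Tal1, Zfpm1 and Gfi1b, transcription factors of erythroid precursors, were at 0 in the red cell barcodes of both libraries, which allows up to 3 UMIs among 78787 non-globin UMIs in p63 KO and 57099 in wild type. Top2a, Ccnb1 and Epor, of the list of erythroblast proliferation and nuclear genes, were likewise at 0 in both. That list was not scarce as a whole, and 11 of its 18 genes had a UMI in p63 KO and 14 in wild type. Malat1 had 1721 UMIs in p63 KO and 1674 in wild type. Its ratio to other barcodes was 0.376 in p63 KO, called lower, and 1.03 in wild type, not called. Cd24a, of the same list, was called higher in both libraries, at 3.44 in p63 KO and 3.04 in wild type. Ube2c, a ubiquitin-conjugating enzyme better known from mitosis and named here after its values were seen, had 20 UMIs in 17 red cell barcodes of each library. Other p63 KO barcodes had 0 Ube2c UMIs among 10848101. The counting interval of the p63 KO ratio had a lower end of 680, and a floor of 3 UMIs over the whole set gave 918-fold. Other wild-type barcodes had 182 Ube2c UMIs, a ratio of 16.3 (9.71 to 25.9). Genes outside the erythroid lists were called higher too. Sec61g, a subunit of the secretory translocon, was among the 10 highest called ratios in both libraries, at 17.8 in p63 KO and 10.4 in wild type. Arf5, a small GTPase of membrane traffic, was among them in p63 KO at 28.5 and was called in wild type at 6.17.

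**Figure D4:**
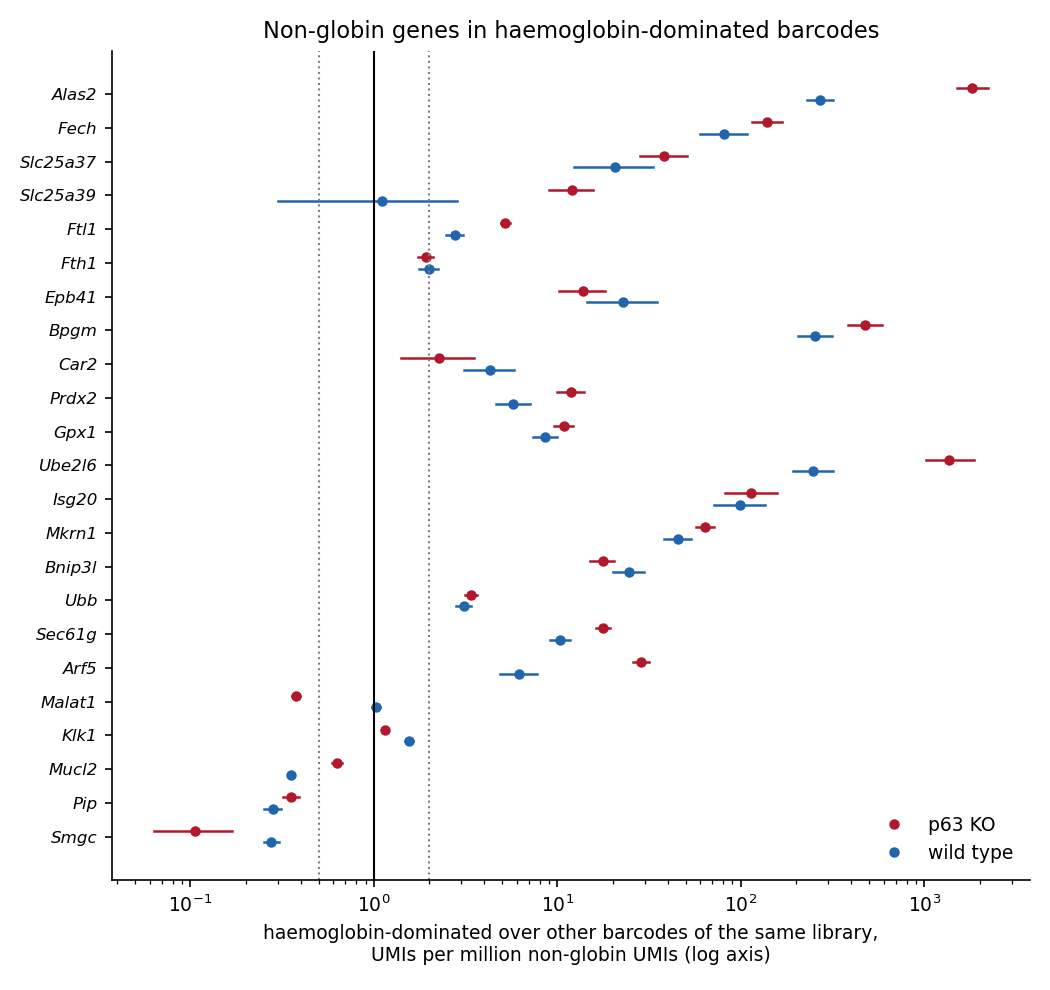
Level in red cell barcodes over the level in other barcodes of the same library, scaled to non-globin UMIs (x axis, log), for 23 genes, with 95% counting intervals as lines; dotted lines mark 2-fold. Alas2, Bpgm and Ube2l6 lie far right of 1 in both libraries, Fth1 lies near 2 and Slc25a39 in wild type near 1, and saliva genes such as Smgc and Pip lie left of it.

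Set against wild-type red cell barcodes, p63 KO red cell barcodes had 13 of 1105 genes called higher (1.18%) and 22 called lower (1.99%); with the minimum of 50 UMIs it was 10 (3.24%) and 11 (3.56%) of 309. Much of this turned on the scale, since globin took a larger share in p63 KO. Alas2 was 2.54 times as high in p63 KO per non-globin UMI (2.28 to 2.84), yet per globin UMI the ratio was 0.912 (0.818 to 1.02), with 17.1 UMIs per 10000 globin UMIs in p63 KO and 18.7 in wild type. Ftl1 stood at 2.27 per non-globin UMI and at 0.814 per globin UMI. Arf5 was higher in p63 KO on both scales, at 4.31 (3.38 to 5.56) and 1.55 (1.21 to 1.997), and so was Slc25a39, at 10.7 (3.96 to 40.5) and 3.84 (1.42 to 14.6). Among barcodes of 90 to 95% globin, Alas2 stood at 1.53 (1.27 to 1.85), Ftl1 at 2.05 (1.60 to 2.66) and Arf5 at 2.68 (1.80 to 4.15) per non-globin UMI, none of them called. There Slc25a39 had 33 UMIs in p63 KO and 0 in wild type. Scaling choices moved the split of calls: it was 25 higher and 16 lower by the median of ratios, 20 and 17 without mitochondrial genes, and 1 and 250 per globin UMI.

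Bpgm, Ube2l6, Mkrn1, Bnip3l, Fech and Isg20 were not called in this comparison. Isg20 stood at 0.767 of wild type per non-globin UMI (0.543 to 1.09) and at 0.276 per globin UMI; the others lay between 1.16 and 2.26 per non-globin UMI and between 0.417 and 0.813 per globin UMI. Among barcodes of 90 to 95% globin, Bpgm turned to 0.715 (0.557 to 0.923) and Bnip3l to 0.727 (0.516 to 1.04) per non-globin UMI, and Isg20 was 0.529 (0.325 to 0.880). Fech, Mkrn1 and Ube2l6 lay between 1.21 and 1.28 there, each with an interval that held 1.

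Among red cell barcodes of at least 75% globin, the minor beta gene was set beside the chain balance in classes chosen after seeing the data. In 157 p63 KO barcodes with an alpha to beta ratio of 0.7 to 1, Hbb-bt over Hbb-bs was 0.131, and in 189 at 1 or more it was 0.122; in the 13, 12 and 16 barcodes under 0.5, from 0.5 to 0.6 and from 0.6 to 0.7 it was 0.0844, 0.0681 and 0.111. In wild type it was 0.124 in 22 barcodes under 0.5, 0.143 in 29 from 0.5 to 0.6, 0.167 in 14 from 0.6 to 0.7 and 0.220 in 11 from 0.7 to 1. The wild-type values thus stood higher in each class of higher alpha share, and the p63 KO values had no such order. Both ratios have Hbb-bs in their denominator, and this is a description across barcodes. Alas2 per 10000 globin UMIs ran between 16.4 and 22.9 over the p63 KO classes and between 11.8 and 17.5 over these 4 wild-type classes, and median depth between 1404 and 2646 UMIs in p63 KO and between 2248 and 2614.5 in wild type.

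RNA of gland cells was present in most red cell barcodes. The saliva protein list gave 2.82% of non-globin UMIs in p63 KO red cell barcodes, against 5.31% in other p63 KO barcodes, and 6.86% in wild-type red cell barcodes, against 22.6% in other wild-type barcodes. At least 1 UMI of this list was present in 397 of 410 p63 KO and in all 106 wild-type red cell barcodes, with medians of 4 and 28 UMIs. In p63 KO 2 of 8 genes compared were called lower than in other barcodes (1.66% over all genes), and in wild type 7 of 9 (1.9% over all genes). With each barcode weighted equally, Pip in p63 KO turned to 1.55 and Mucl2 in wild type to 1.21, both above the other barcodes. Smgc, a mucin-like acinar protein, had 18 UMIs in p63 KO red cell barcodes, a ratio of 0.107 to the others, and 438 in wild type, a ratio of 0.276, of which 335 sat in 1 barcode. Mucl2 had 1196 UMIs in p63 KO red cell barcodes and 2258 in wild type. Klk1, a kallikrein of the granular ducts, was near the level of other barcodes, with ratios of 1.15 in p63 KO and 1.55 in wild type.

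Some gland genes stood in other proportions than in the rest of the library, and some did not. Klk1 over Mucl2 was 1.28 in p63 KO red cell barcodes of 90% or more globin (1.18 to 1.39) and 1.17 in other p63 KO barcodes, and 0.447 in wild type (0.386 to 0.518) against 0.148. Smgc over Mucl2 was 0.0161 in p63 KO (0.00916 to 0.0263) against 0.0889, and 0.0568 in wild type (0.0389 to 0.0802) against 0.248. In both libraries Smgc was therefore lower relative to Mucl2 in red cell barcodes. Pip over Mucl2 was 0.314 in p63 KO (0.276 to 0.357) against 0.557, and 0.140 in wild type (0.110 to 0.176) against 0.198. Scgb2b27 over Scgb1b27, a pair of secretoglobins, had intervals that held the value of the other barcodes, at 0.384 in p63 KO (0.297 to 0.492) against 0.471, and 0.589 in wild type (0.424 to 0.811) against 0.599. Crisp3 over Klk1 was 0.391 in p63 KO (0.352 to 0.434) against 0.232, and 0.142 in wild type (0.0982 to 0.1997) against 0.116. Klk1b26 over Klk1 was 0.161 in p63 KO (0.138 to 0.186) against 0.123, and 0.179 in wild type (0.129 to 0.244) against 0.250. Whether these UMIs were free RNA in the droplets was not tested.

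Among other blood cells, the platelet list of 12 genes had 1 UMI in p63 KO and 0 in wild type, and its defining genes Pf4, Itga2b and Gp9 were at 0 in both. Of 14 neutrophil genes, 4 were found in p63 KO with 24 UMIs and 2 in wild type with 17; S100a8, Ly6g and Csf3r were at 0 in both. The lymphocyte and NK list had 4 UMIs in 2 p63 KO red cell barcodes, 0.846 times the level of the other barcodes (0.230 to 2.18), and 22 UMIs in 8 wild-type ones, 2.999 times the level of the others (1.87 to 4.56), of which 20 lay under 75% globin. Cd52, a surface protein of lymphocytes, had 1 UMI in p63 KO and 11 in wild type and was called lower in p63 KO. The fibroblast list had 4 and 2 UMIs, and the basal and myoepithelial list 2 and 10.

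The endothelial list was also raised in red cell barcodes, most evenly in wild type. Under the minimum of 50 UMIs, 11 of 11 genes compared were called higher in wild type (1.84% over all genes). In p63 KO it was 1 of 12 (1.08% over all genes). The summed list stood at 11.4 times the other barcodes in wild type (9.85 to 13.1) and 2.22 times in p63 KO (1.88 to 2.60). Most UMIs of the endothelial list lay in barcodes of low globin share. The list had 155 UMIs in 27 p63 KO red cell barcodes and 213 in 25 wild-type ones, of which 110 and 181 lay in barcodes under 75% globin; at 90% or more the list had 23 UMIs in p63 KO and 2 in wild type. Fabp4 and Igfbp7, both made by vessel cells, were called 15.5 and 13.2 times as high in wild-type red cell barcodes as in the others, with 2 of 75 and 1 of 103 UMIs at 90% globin or more. In p63 KO they stood at 1.47 and 1.40 and were not called. The macrophage list was more widely spread in wild type: it had 293 UMIs in 35 p63 KO red cell barcodes, 255 of them under 75% globin and 162 in 1 barcode, and 248 UMIs in 58 wild-type ones, 157 of them under 75% globin and 128 in 1 barcode. Apoe, a lipid carrier of macrophages and other cells, gave 186 of these UMIs in 28 p63 KO barcodes and 143 in 42 wild-type ones. None of the macrophage genes compared was called in either library, and Mrc1 was at 0 in both. Cxcl1, Ccl3, Ccl4 and Mmp12, chemokines and a macrophage elastase, were called higher in p63 KO than in wild-type red cell barcodes. A single barcode with 63.2% globin and 5107 UMIs held 68 of the 77 Cxcl1, 37 of the 61 Ccl3, 81 of the 129 Ccl4 and all 12 Mmp12 UMIs. Without the barcode richest in it, Cxcl1 in p63 KO red cell barcodes stood at 0.380 of the other p63 KO barcodes, against 3.17 with it.

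Red cell RNA was also present below the threshold. Alas2 was found in 33 of 59 p63 KO barcodes with a globin share of 1 to 50% (55.9%, 42.4 to 68.8%) and in 45 of 62 wild-type ones (72.6%, 59.8 to 83.1%). Per 10000 globin UMIs, the 25 to 50% class had 29.2 Alas2 UMIs in p63 KO (22.2 to 37.7) and 33.6 in wild type (28.2 to 39.6), above the 17.1 and 18.7 of the red cell barcodes. At 0.1 to 1% globin it was 31.3 in p63 KO (12.6 to 64.4), on 7 UMIs, and 19.4 in wild type (11.7 to 30.4), on 19 UMIs. Under 0.1% globin it was 68.5 in p63 KO (43.4 to 102.8), on 23 UMIs, and 73.7 in wild type (39.2 to 125.95), on 13 UMIs. The classes were set by globin share and globin is the denominator, which can raise the value in the low classes. The values across classes are therefore a description.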

How the data were processed

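Single-cell RNA was measured in 1 p63 KO and 1 wild-type submandibular gland library. The deposited values were raw UMI counts per gene and barcode (11828669 in p63 KO and 8811082 in wild type), which the authors made; per the submitters' processing notes the tools were bcl2fastq 2.19.1, Seurat 3.1.2 and Cell Ranger 2.1.0, with the mm10 build, and no roles are named. The rule by which barcodes were selected was not given in the sources used here. Of 27998 gene identifiers, 27645 matched a symbol in GENCODE M21.

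All 6696 barcodes were used. Counts were summed per gene over red cell barcodes and over the others, scaled to UMIs outside the 4 globin genes, and compared as a ratio with an exact conditional 95% Poisson interval; shares have exact binomial (Clopper-Pearson) intervals. Genes with at least 5 expected UMIs on both sides were compared and called when the interval lay beyond 2-fold. The minimum of 50 UMIs was added after seeing the data. Detection was repeated after thinning each barcode to 1000 UMIs. No doublet caller was run; barcodes that also held markers of other cells are described. The calling rule was tested on simulated data.

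Named genes were the 4 globins, erythroid-list genes with at least 10 UMIs in both libraries' red cell barcodes together, the 15 most abundant non-globin genes, the 10 highest and lowest called ratios per comparison, and the 3 most abundant genes of each other list; exceptions are marked, and some genes that the rule names are not reported here. The members and lists were chosen with earlier results of these data known. Sequences and motif shares came from RefSeq (GRCm38.p6). Alternatives covered the globin threshold, scaling, minimum counts, fold, weighting and thinning. Python 3.11.15, numpy 2.4.6, scipy 1.17.1 and matplotlib 3.10.9 were used.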

Additional observations from a re-analysis of the deposited data

How the results depend on the processing

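With 1 library per genotype, no setting tells the genotype from the library, and the 57099 non-globin UMIs of wild-type red cell barcodes limit what can be seen there. The summed alpha to beta ratio was 0.995 in p63 KO and 0.608 in wild type. It was 0.991 and 0.590 at 90% globin, and 1.23 and 0.640 with barcodes weighted equally. Among alternatives chosen after seeing the data it was 0.980 and 0.582 at 90 to 95% globin. In p63 KO barcodes as deep as the shallowest wild-type one it was 0.931. These shifts were smaller than the spread between barcodes, which was wide. No paired analysis was possible because each genotype had 1 library. Red cell barcodes were 7.47% of p63 KO at 90% globin and 14.5% among barcodes under 20% mitochondrial UMIs, and 6.85, 3.91 and 1.93% of wild type at 25, 75 and 90% globin. The median of non-globin UMIs was 56.0 in p63 KO and 123.0 in wild type after thinning to 1000 UMIs, and 172.5 in p63 KO barcodes as deep as the shallowest wild-type one, an alternative chosen after seeing the data. Other barcodes with an Alas2 UMI were 0.579% in p63 KO and 2.09% in wild type after thinning, against 1.41 and 4.02%.

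Against other barcodes, 66 genes were called in p63 KO and 53 in wild type. The counts were 6943 and 1720 when scaled by all UMIs, 109 and 125 with at least 1 expected UMI, 30 and 29 with at least 20, 133 and 95 beyond 1.5-fold, and 126 and 178 with at least 50 UMIs (chosen after seeing the data); at 90% globin wild type had 12. Between p63 KO and wild-type red cell barcodes 35 genes were called. That count was 21 at 75% globin, 9 at 90%, 206 by all UMIs, 21 with at least 20 expected UMIs and 76 beyond 1.5-fold. Among alternatives chosen after seeing the data it was 21 with at least 50 UMIs, 251 per globin UMI, 8 at 90 to 95% globin and 23 in barcodes without an endothelial UMI. The median log2 ratio of all genes compared was -3.71 in p63 KO and -2.37 in wild type by all UMIs, and between libraries -1.45 by all UMIs and -1.67 per globin UMI, so ratios there are relative to those shifts.

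Scaling by all UMIs puts globin in the total and turned these ratios to other barcodes below 1: in p63 KO Ftl1 0.436, Prdx2 0.988, Gpx1 0.907, Ubb 0.284, Cd24a 0.288 and Cxcl1 0.266, and in wild type Ftl1 0.565, Car2 0.876, Ubb 0.629, Crisp3 0.510 and Cd24a 0.620. Between the libraries Ftl1 was 0.935 by all UMIs and 0.814 per globin UMI, and Alas2 0.912 per globin UMI. Cxcl1 in p63 KO fell to 0.123 at 75% globin, 0.151 at 90%, 0.380 without the barcode richest in it and 0.438 with barcodes weighted equally; between libraries it was 0.435 at 75%. Ccl4 between libraries was 0.707 at 75%, 0.533 at 90% and 0.643 at 90 to 95%. Igfbp7 in wild type was 0.873 at 90%. With barcodes weighted equally Pip was 1.55 in p63 KO and Mucl2 1.21 in wild type; the cause was not tested.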
